A study of Homo sapiens with 9 samples.

Results

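The transcripts of the EGF receptor family, its ligands and its feedback inhibitor were followed in MDA-MB-231, a triple-negative breast cancer line of mesenchymal character, after small interfering RNAs (siRNAs) against KDM5A. The genes were EGFR, ERBB2 and ERBB3 (receptors), HBEGF, AREG, EREG, TGFA and NRG1 (ligands) and ERRFI1 (inhibitor), chosen by name. Array probes were taken as members when their annotation carried 1 of these symbols, which gave 22 of 48799 probes for 8 of the 9 genes. AREG carried no probe annotation used here and is not analysed here. KDM5A, which the labels also call RBP2 and JARID1A, encodes a demethylase of lysine 4 of histone H3. Cells were taken 72 h after transfection with a control siRNA against luciferase (Luc), with siRNA 1 against RBP2 (KD1) or with siRNA 2 against RBP2 (KD2), and 3 arrays were made per group. The level of KDM5A is not analysed here, so the extent of the knockdown is not given and the groups are described as labelled.

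EGFR is a receptor tyrosine kinase at the cell surface. HB-EGF, amphiregulin, epiregulin and TGF-alpha bind it after they are cut from membrane precursors by ADAM proteases, and it signals as a dimer with itself or with ERBB2 or ERBB3 into the RAS-ERK and PI3K-AKT pathways. ERBB2 has no known ligand of its own, ERBB3 has little kinase activity and binds neuregulins, and ERRFI1 (MIG6) is an induced protein that binds the EGFR kinase domain and blocks it. Triple-negative breast cancer lines such as MDA-MB-231 lack hormone receptors and ERBB2 amplification, and many of them express EGFR.

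Between 14529 and 17538 probes were detected on an array, which means a detection p-value under 0.05 against that array's negative controls. The KD1 arrays had the fewest, 14529 to 15110, against 15679 to 17538 in Luc and 15370 to 15777 in KD2. Their lowest detected signal was also the highest, 5.20 to 5.26 in log2, against 5.03 to 5.15 in Luc and 5.14 to 5.18 in KD2. The 16164 probes detected on at least 3 arrays were tested. Of the 5 mesenchymal markers looked for (VIM, CD44, MSN, AXL and CAV1), 5 were detected on all 9 arrays, as were EPCAM and KRT19 of 6 luminal and epithelial markers. Of the other 4, GATA3 was detected on 4 arrays, CDH1 on 2, and the hormone receptor genes ESR1 and PGR on none. The summed linear level of these 6 was 2283 to 2713 in Luc, 1674 to 1787 in KD1 and 2597 to 3727 in KD2. Of the 3 tested, EPCAM fell in KD1 (-0.50, adjusted p = 0.0340) and in KD2 (-0.50, adjusted p = 0.0263), and KRT19 fell in KD1 (-0.61, adjusted p = 0.0400) and rose in KD2 (0.60, adjusted p = 0.0343). Of 8 markers of leukocytes, endothelium and fibroblasts, 1 was detected on all 9 arrays and 2 (CD3E and LUM) on none. The summed level of these 8 on the linear scale was 288 to 327 in Luc, 245 to 263 in KD1 and 337 to 361 in KD2, against 57695 to 60209.9, 47145 to 48422 and 59107 to 59886 for the mesenchymal markers in the same groups. These sums differed between the groups. Of the mesenchymal markers 2 fell in KD1 and 1 rose in KD2, where 17.3% and 23.8% of all genes were called. The 1 tested leukocyte marker fell in KD1 (-1.15) and the 1 tested fibroblast marker rose in KD2 (1.32), and neither was detected on all 9 arrays. The 1 tested endothelial marker was not called. The part of all these markers in the results below was not tested. The Luc and KD2 arrays held slide positions A to F and the KD1 arrays positions G, I and K, so position and KD1 cannot be told apart. The labels do not name separate cultures, so p-values measure the spread between these arrays, which may be technical. Both siRNAs were compared with the same 3 Luc arrays.

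The promoters of the 4 genes with the clearest changes are shown because their transcripts form 2 groups below: EGFR and TGFA were lower in KD2, and HBEGF and ERRFI1 were higher in KD1 and in KD2. Each sequence runs 5′ to 3′ on the gene's strand from 250 bases before to 50 after the RefSeq start (build GRCh38.p14). The capitals mark GGGCGG or its reverse complement CCGCCC, the GC box bound by SP1, which is also the motif described for the DNA-binding ARID domain of KDM5A. The windows are chr7:55018767-55019066 (plus strand) for EGFR, chr2:70553777-70554076 (minus) for TGFA, chr5:140346554-140346853 (minus) for HBEGF and chr1:8026260-8026559 (minus) for ERRFI1.
EGFR: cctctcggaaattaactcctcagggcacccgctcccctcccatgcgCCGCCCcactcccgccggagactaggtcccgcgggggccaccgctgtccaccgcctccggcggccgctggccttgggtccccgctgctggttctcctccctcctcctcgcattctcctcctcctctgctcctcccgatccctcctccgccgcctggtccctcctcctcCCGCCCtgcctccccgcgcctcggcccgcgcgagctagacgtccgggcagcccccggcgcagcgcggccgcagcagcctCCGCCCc
TGFA: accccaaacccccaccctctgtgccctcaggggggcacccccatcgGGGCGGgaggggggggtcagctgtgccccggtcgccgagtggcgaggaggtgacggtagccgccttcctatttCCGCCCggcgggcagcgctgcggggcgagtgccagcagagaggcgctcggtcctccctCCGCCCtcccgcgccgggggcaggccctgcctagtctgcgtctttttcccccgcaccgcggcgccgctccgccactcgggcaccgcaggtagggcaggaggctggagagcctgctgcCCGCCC
HBEGF: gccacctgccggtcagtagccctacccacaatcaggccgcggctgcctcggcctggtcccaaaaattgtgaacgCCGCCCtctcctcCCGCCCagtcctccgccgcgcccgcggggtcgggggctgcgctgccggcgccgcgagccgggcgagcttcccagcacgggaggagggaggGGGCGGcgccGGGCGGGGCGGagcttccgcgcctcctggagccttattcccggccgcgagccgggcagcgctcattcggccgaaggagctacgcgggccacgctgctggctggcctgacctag
ERRFI1: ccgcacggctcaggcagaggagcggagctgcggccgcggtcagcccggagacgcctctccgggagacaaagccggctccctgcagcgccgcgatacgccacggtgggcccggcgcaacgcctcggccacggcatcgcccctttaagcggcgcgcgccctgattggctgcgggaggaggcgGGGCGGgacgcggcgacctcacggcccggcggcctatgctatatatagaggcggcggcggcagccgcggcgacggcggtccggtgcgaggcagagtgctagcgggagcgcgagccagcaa
The motif was found 3 times for EGFR, 4 times for TGFA, 5 times for HBEGF, with 2 matches overlapping by 1 base, and 1 time for ERRFI1, counting both strands. Of 35116 promoters of the same length, 45.0% held it. The GC content of the 4 windows was 74.7% to 75.3%, against a median of 58.7% over all promoters. The AP-1 motif TGANTCA, the TATA motif TATAAA and the cAMP response motif TGACGTCA were not found in these windows on either strand, and 7.71%, 11.5% and 1.85% of all promoters held them. Only these exact letters were searched. Variants of them, such as the stretch tatatatag in the ERRFI1 window, were not counted. The matches describe letters in these windows and do not show binding.

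EGFR transcripts fell in KD2, about 3-fold on the background-corrected scale used here, and the difference between KD1 and KD2 was itself called. The probe ILMN_1798975, annotated to the record of the full-length receptor, had deposited intensities of 757, 969.6 and 854 in Luc, 664, 659 and 640.4 in KD1, and 314, 338 and 307 in KD2. After background correction and quantile normalization its log2 levels were 9.23, 9.46 and 9.58 in Luc, 9.30, 9.27 and 9.20 in KD1, and 7.60, 7.98 and 7.85 in KD2. The 3 KD2 arrays lay below all 6 others, while the KD1 values lay within or just below the Luc range. The log2 difference, KD2 minus Luc, was -1.61 (SE 0.15, limma adjusted p = 1.05e-04), a level 3.06-fold lower with a 95% interval of 2.44 to 3.83. It ranked 57th from the lowest among 16164 probes. Over 20 processing alternatives the difference ran from -1.75 to -1.07, the latter on the deposited normalized values. KD1 minus Luc was -0.17 (SE 0.15, adjusted p = 0.496, 95% interval -0.49 to 0.16). KD1 exceeded KD2 by 1.45 in log2 (SE 0.15, adjusted p = 1.03e-04).

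The other 3 EGFR probes were dim. ILMN_1696521, annotated to the record of a shorter EGFR variant, was detected on 2 Luc, 2 KD1 and 3 KD2 arrays. Its log2 levels were 4.97, 5.84 and 6.15 in Luc, 5.37, 5.10 and 5.98 in KD1, and 5.25, 5.82 and 5.22 in KD2. The 3 groups overlapped, and neither KD1 minus Luc (-0.17, SE 0.32, adjusted p = 0.775) nor KD2 minus Luc (-0.22, SE 0.32, adjusted p = 0.677) was called. Its mean of 5.65 in Luc lay close to the lowest detected signal on the KD2 arrays (5.14 to 5.18), so a fall as large as that of the full-length probe could not be registered on it. ILMN_1728858 and ILMN_1755535, also annotated to shorter variants, were detected on no array.

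ERBB2 and ERBB3, the partner receptors, were not called in any comparison. ERBB2 by ILMN_2352131 had log2 levels of 8.74, 8.81 and 8.64 in Luc, 8.81, 8.56 and 8.65 in KD1, and 8.75, 9.00 and 9.08 in KD2. The groups overlapped. Its difference was -0.06 for KD1 minus Luc (SE 0.14, adjusted p = 0.824, 95% interval -0.36 to 0.25) and 0.21 for KD2 minus Luc (SE 0.14, adjusted p = 0.320, 95% interval -0.10 to 0.52). The ERBB2 probe ILMN_1717902 was detected on 1 KD1 and 1 KD2 array and ILMN_1728761 on none.

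ERBB3 by ILMN_1751346 was dim but detected on all 9 arrays, at 6.49, 5.69 and 6.18 in Luc, 5.63, 6.01 and 5.97 in KD1, and 6.69, 6.24 and 5.93 in KD2. Values of the 3 groups were mixed. The differences were -0.25 for KD1 minus Luc (SE 0.24, adjusted p = 0.543, 95% interval -0.78 to 0.29) and 0.17 for KD2 minus Luc (SE 0.24, adjusted p = 0.674, 95% interval -0.36 to 0.70). Of the other ERBB3 probes, ILMN_1737993 was detected on 2 KD2 arrays and ILMN_2397602 on 1 KD2 array, and on no array of Luc or KD1. Neither was tested.

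**Figure D1:**
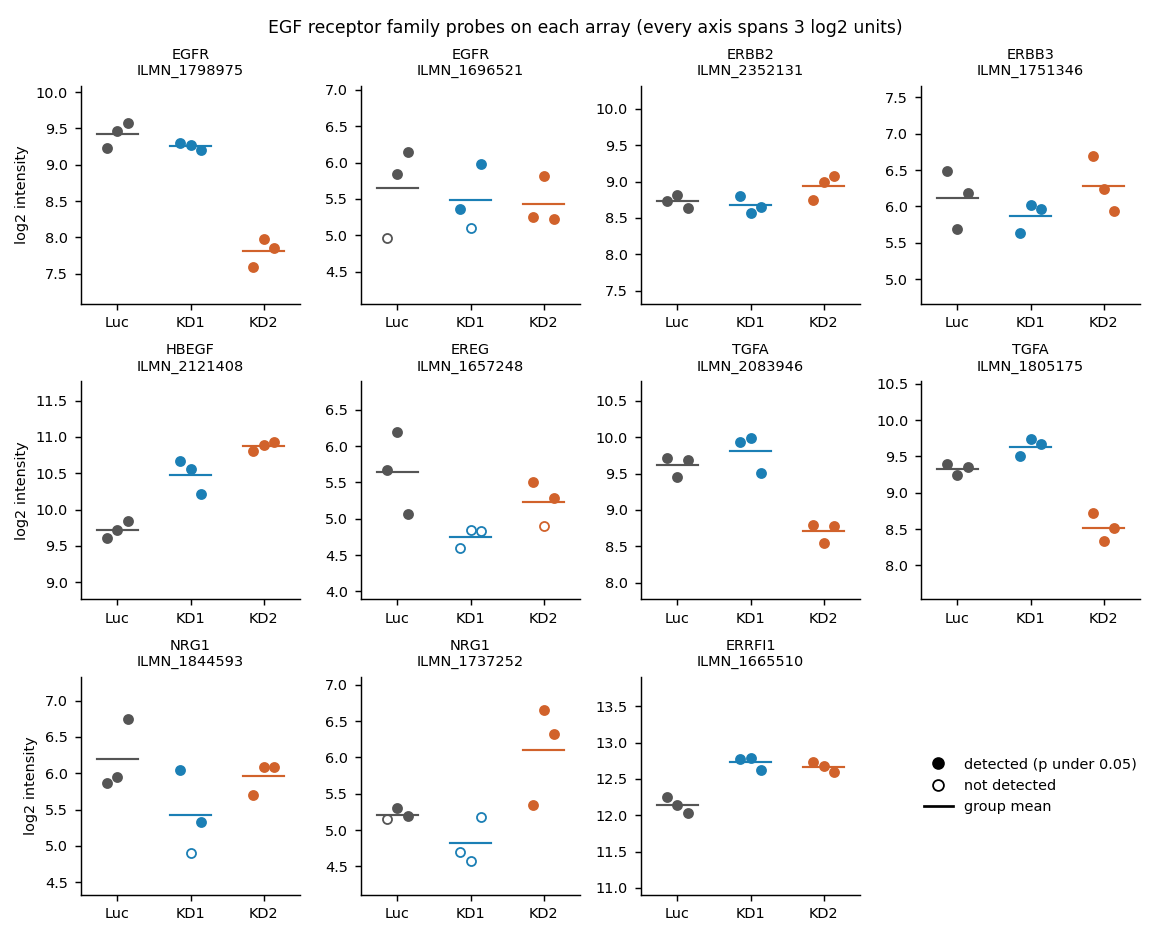
Log2 intensity of the 11 tested probes (y axis, each spanning 3 log2 units) on the 3 arrays of Luc, KD1 and KD2 (x axis), with filled points for detected and open points for undetected probes and a line at each group mean. EGFR by ILMN_1798975 and both TGFA probes sit lower in KD2 than elsewhere, HBEGF and ERRFI1 sit higher in KD1 and KD2 than in Luc, and EREG and NRG1 lie near the detection limit.

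HBEGF, the gene of heparin-binding EGF-like growth factor, was higher with each siRNA. Its only probe, ILMN_2121408, read 9.60, 9.71 and 9.84 in Luc, 10.67, 10.55 and 10.21 in KD1, and 10.81, 10.89 and 10.93 in KD2 on the log2 scale. The 3 groups did not overlap, with Luc lowest and KD2 highest. KD1 minus Luc was 0.76 (SE 0.15, adjusted p = 0.00729), or 1.69-fold (95% interval 1.35 to 2.12). KD2 minus Luc was 1.15 (SE 0.15, adjusted p = 6.19e-04), or 2.23-fold (95% interval 1.77 to 2.79). KD1 minus KD2 was -0.40 and was not called (SE 0.15, adjusted p = 0.0738), although it was called under 6 of 20 processing alternatives.

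TGFA, the gene of TGF-alpha, fell in KD2 on both of its probes. ILMN_2083946 read 9.72, 9.45 and 9.69 in Luc, 9.94, 9.99 and 9.51 in KD1, and 8.80, 8.55 and 8.78 in KD2. ILMN_1805175 read 9.39, 9.24 and 9.35 in Luc, 9.50, 9.74 and 9.67 in KD1, and 8.72, 8.33 and 8.51 in KD2. On each probe the KD2 arrays lay below all others, and on the second the KD1 arrays lay just above the Luc arrays. KD2 minus Luc was -0.91 (SE 0.16, adjusted p = 0.00354) and -0.81 (SE 0.14, adjusted p = 0.00303), levels 1.88-fold and 1.75-fold lower. KD1 minus Luc was 0.20 (SE 0.16, adjusted p = 0.467) and 0.31 (SE 0.14, adjusted p = 0.171), and the first of these turned to -0.0476 with arrays scaled to the median of all probes. The second was called under 1 of 19 alternatives, on the deposited normalized values (0.24, limma adjusted p = 0.0390). KD1 minus KD2 was 1.1 (SE 0.16, adjusted p = 8.93e-04) and 1.12 (SE 0.14, adjusted p = 3.44e-04). As a description, the 2 TGFA probes had a Pearson correlation of 0.948 over the 9 arrays, and EGFR by ILMN_1798975 correlated with them at 0.895 and 0.867. All these values come from the same arrays, and the 3 KD2 arrays were the lowest on each of the 3 probes.

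EREG, the gene of epiregulin, was near the detection limit. ILMN_1657248 read 5.66, 6.19 and 5.06 in Luc, all detected, 4.59, 4.84 and 4.83 in KD1, none detected, and 5.51, 4.90 and 5.28 in KD2, of which the second was not detected. The KD1 arrays lay below the Luc arrays. Against the detection floor of the KD1 arrays EREG was at least 1.33-fold lower in KD1 (fitted log2 difference -0.89, SE 0.26, adjusted p = 0.0451). The call was lost under 12 of 18 alternatives. Over all 18 the adjusted p ran from 0.0124 to 0.137, and of the 9 fits that left out an array, those without Luc replicate 3 (0.0124) and without KD2 replicate 2 (0.0464) kept it. KD2 minus Luc was -0.41 (SE 0.26, adjusted p = 0.305).

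NRG1, the gene of the neuregulin ligands of ERBB3, has many transcript variants, and its 7 probes did not read alike. ILMN_1737252, annotated to the record of variant GGF2, read 5.15, 5.30 and 5.20 in Luc, 4.70, 4.57 and 5.18 in KD1, and 5.34, 6.65 and 6.32 in KD2. It was detected on 2 Luc, 0 KD1 and 3 KD2 arrays. Against the KD1 detection floor KD2 was at least 1.84-fold higher (fitted KD1 minus KD2 -1.29, SE 0.29, adjusted p = 0.00947). KD2 minus Luc was 0.89 and was not called (SE 0.29, adjusted p = 0.0550), though the 3 KD2 arrays lay above the Luc arrays, the lowest by a small margin, and 6 of 17 alternatives called it, and KD1 minus Luc was -0.40 (SE 0.29, adjusted p = 0.409). ILMN_2298888, annotated to the same record, read 6.51 on Luc replicate 1 and was not detected on the other 8 arrays (4.40 to 4.88), so the 2 probes for that variant disagreed.

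The brightest NRG1 probe, ILMN_1844593, read 5.86, 5.95 and 6.75 in Luc, 6.05, 4.90 and 5.33 in KD1, and 5.70, 6.09 and 6.09 in KD2. Its groups overlapped. KD1 minus Luc was -0.76 (SE 0.30, adjusted p = 0.123) and KD2 minus Luc -0.23 (SE 0.30, adjusted p = 0.648). The KD1 value ran from -1.07 without KD1 replicate 1, where it was called (adjusted p = 0.0375), to -0.48 without Luc replicate 3, and it was also called with median scaling over all probes (-0.92, adjusted p = 0.0362). Of the remaining NRG1 probes, ILMN_1731788 was detected on 1 Luc array, and ILMN_1747867, ILMN_1811954 and ILMN_1657607 on none. EREG and ILMN_1737252 entered the test through the groups in which they were higher, so their differences are favoured by the detection rule.

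ERRFI1, the feedback inhibitor, rose with each siRNA. ILMN_1665510 read 12.26, 12.13 and 12.03 in Luc, 12.78, 12.78 and 12.62 in KD1, and 12.73, 12.68 and 12.59 in KD2. All 6 KD1 and KD2 arrays lay above the Luc arrays, and KD1 and KD2 overlapped. KD1 minus Luc was 0.59 (SE 0.13, adjusted p = 0.0112), or 1.5-fold, and KD2 minus Luc was 0.53 (SE 0.13, adjusted p = 0.0138), or 1.44-fold. KD1 minus KD2 was 0.06, with a 95% interval of -0.22 to 0.34. With arrays scaled to the median of all probes the KD1 difference was 0.45 and no longer called (adjusted p = 0.0707), and the call was kept under the other 19 alternatives.

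Over the 11 tested probes, 3 were called in KD1 against Luc, where 15.4% of all tested probes were called. Of these 2 were higher (background 6.72%) and 1 lower (background 8.72%). The 1 lower was EREG, which passed the detection rule through the groups in which it was higher. In KD2 against Luc 5 were called, where the background was 21.4%, 2 of them higher (background 10.3%) and 3 lower (background 11.1%). In KD1 against KD2 4 were called, where the background was 25.7%, 3 of them higher in KD1 (background 12.4%) and 1 lower (background 13.3%). The 1 lower was NRG1 by ILMN_1737252, which also passed the detection rule through the groups in which it was higher. HBEGF and ERRFI1 were called higher with both siRNAs, as were 2.54% of tested probes, and 0 member probes were called lower with both, as were 2.56%. The EGFR probe and both TGFA probes were called lower in KD2 than in Luc and than in KD1, as were 6.3% of tested probes. With 11 probes that share genes, these shares are read as a description. The median log2 difference of the 11 probes was -0.17 in KD1 and -0.22 in KD2, and 0.00 in each over all tested probes. Each median of the 11 is the value of 1 EGFR probe not called in that comparison, ILMN_1798975 in KD1 and ILMN_1696521 in KD2. The called probes of KD1 against Luc over the whole array were 43.5% higher, and 53.8% with median scaling over detected probes or 13.8% with median scaling over all probes, which shifted the median difference of all tested probes to -0.19. The other 11 member probes were not tested: 6 were detected on no array and 5 on 1 or 2 arrays.

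**Figure D2:**
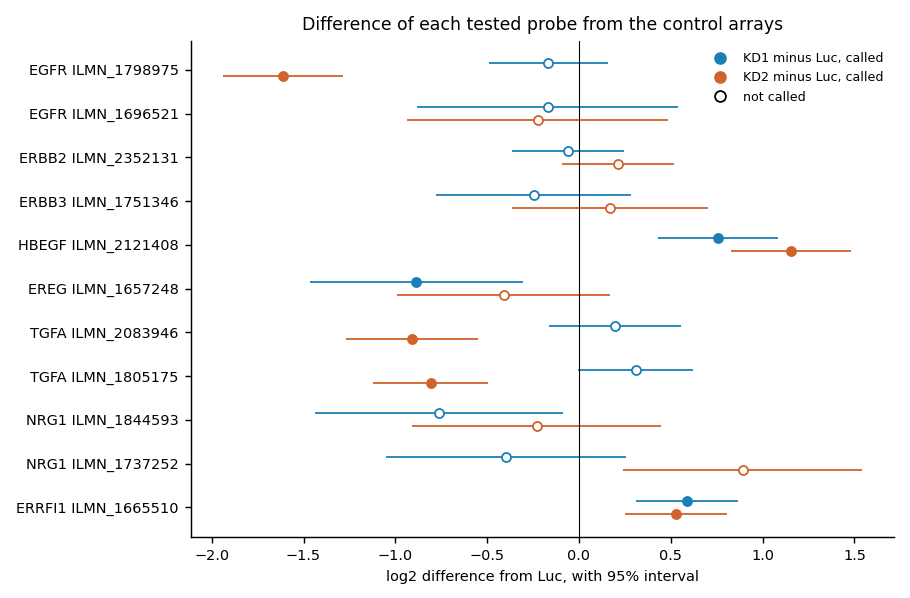
Log2 difference from Luc (x axis) with 95% intervals for the 11 tested probes (y axis), KD1 in blue and KD2 in orange, filled where the adjusted p was under 0.05. The KD2 point of EGFR by ILMN_1798975 lies at -1.61 and those of TGFA at -0.91 and -0.81, while the HBEGF and ERRFI1 points lie above 0 for both siRNAs.

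By Pearson correlation of log2 level over the 9 arrays, among the brightest tested probes of all other genes, EGFR was most like TCTN3 (0.992) and DCAF12 (0.988). HBEGF was most like MRPL52 (0.984) and RAB11FIP5 (0.981), TGFA most like TAX1BP1 (0.986) and LCMT1 (0.982), and ERRFI1 most like MIPEP (0.979) and NONO (0.979). For the dim probes the nearest genes were FPR1 (0.920) and BORCS5 (0.918) for EREG and ITGB5 (0.983) and TTLL11 (0.924) for NRG1 by ILMN_1844593, its brightest tested probe, which was itself not called. These are the highest correlations for each, among 10264 genes less the members, over 9 arrays that share 3 groups.

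Other genes of the pathway were read on 8 lists by the brightest probe of each gene. Of 98 genes, 86 had an annotated probe and 76 were tested. In KD1 against Luc 4 rose and 5 fell (11.8%, where 17.3% of all genes read the same way were called), and in KD2 against Luc 11 rose and 8 fell (25.0%, where the background was 23.8%). In KD1 against KD2 13 were higher and 12 lower (32.9%, where the background was 28.8%). The shares were thus close to those of all genes. Their median log2 differences were 0.00 in KD1 and 0.04 in KD2, with 0.00 in each over all genes. Of the other EGF family ligands and the receptor ERBB4, NRG2 alone was tested and was not called, and the EGF and NRG4 probes were detected on no array.

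Among 8 tested genes of ligand shedding and processing, 3 fell and 0 rose in KD1 (17.3% of all genes were called), and 2 fell and 2 rose in KD2 (23.8% of all genes). In KD1 against KD2, 2 of the 8 were lower (28.8% of all genes were called). ADAM17, the main protease that releases TGF-alpha, amphiregulin and HB-EGF, had mean log2 levels ± SD (n = 3) of 8.77 ± 0.15 with Luc, 7.93 ± 0.07 with KD1 and 8.17 ± 0.03 with KD2. It fell with each siRNA (-0.84, adjusted p = 0.00207, and -0.59, adjusted p = 0.00813), while of its 2 other tested probes neither was called in KD1 and 1 was called in KD2. ADAM9, a related protease, fell by 0.97 in KD1 (adjusted p = 0.00342) and by 0.77 in KD2 (adjusted p = 0.00736). ADAM15 fell by 0.74 in KD1 (adjusted p = 0.00895), where 1 of its 3 other tested probes was called. TIMP3, an inhibitor of ADAM17, had 7.07 ± 0.13 for Luc and rose to 8.69 ± 0.35 for KD2 (mean log2 level ± SD, n = 3), a log2 difference of 1.62 (SE 0.21, adjusted p = 7.23e-04), and was at 6.48 ± 0.35 in KD1 (-0.59, adjusted p = 0.0920).

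The lists below the receptor are read against the same shares over all genes, 17.3% in KD1, 23.8% in KD2 and 28.8% in KD1 against KD2. In KD1 against KD2, 1 of 8 adaptor and RAS genes, 3 of 6 genes of the ERK cascade, 2 of 7 genes of the PI3K arm and 3 of 6 STAT and SRC genes were called. The 3 of the ERK cascade were lower in KD1 (list median -0.50), and the 3 of STAT and SRC were higher in KD1 (list median 0.23). Of 8 tested adaptor and RAS genes 1 fell in KD2, PTPN11, the gene of the phosphatase SHP2 (-0.54, adjusted p = 0.0146, lost without KD2 replicate 3). Of 6 tested genes of the ERK cascade 2 rose in KD2. MAP2K1, the gene of MEK1, rose by 0.84 (adjusted p = 0.00122), and MAPK3, the gene of ERK1, by 0.69 (adjusted p = 0.0168, lost without Luc replicate 2). RPS6KA3, the gene of the kinase RSK2, fell by 1.06 in KD1 (adjusted p = 0.0383), a call lost under 7 of 20 alternatives. Of 7 tested genes of the PI3K arm 1 fell in KD2, MTOR (-0.91, adjusted p = 0.00255). Of 6 tested STAT and SRC genes, the SRC-family kinase gene YES1 fell in KD2 (-0.79, adjusted p = 0.0101) and SRC rose in KD1 (0.63, adjusted p = 0.0187, lost under 3 of 20 alternatives).

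Among 20 genes of receptor trafficking and down-regulation, 1 was called in KD1 and 3 in KD2, where 17.3% and 23.8% of all genes were called, and 4 in KD1 against KD2, where 28.8% were. LRIG2, of a family of receptor regulators, rose by 0.73 in KD1 (adjusted p = 0.0325, lost under 7 of 20 alternatives). In KD2 the ubiquitin ligase gene CBLB rose by 0.61 (adjusted p = 0.0225), while RNF41, the gene of a ubiquitin ligase for ERBB3, fell by 0.52 (adjusted p = 0.0213) and the early endosome gene RAB5A fell by 0.48 (adjusted p = 0.0255), each lost under 4 of 20 alternatives.

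Of 20 genes known to respond to ERK signalling, 2 rose and 1 fell in KD1, and 6 rose and 1 fell in KD2, with list medians of 0.12 and 0.30, where 17.3% and 23.8% of all genes were called. In KD1 against KD2, 5 were higher and 5 lower (28.8% of all genes were called). DUSP4 and DUSP5 encode phosphatases that act on ERK. The mean log2 level ± SD of DUSP5 (n = 3) was 11.8 ± 0.06 with Luc, 12.9 ± 0.10 with KD1 and 12.3 ± 0.10 with KD2, a rise of 1.07 in KD1 (adjusted p = 5.18e-04) and of 0.50 in KD2 (adjusted p = 0.0162, lost under 3 of 20 alternatives). DUSP4 rose by 1.22 in KD2 (adjusted p = 0.00156) and was 0.50 higher in KD1 (adjusted p = 0.0991). ETV4, an ETS factor gene, rose by 0.87 in KD2 (adjusted p = 0.00705) and differed by 0.00 in KD1. EGR1, an immediate early gene, fell by 0.97 in KD1 (adjusted p = 0.00706), with -0.34 in KD2 (adjusted p = 0.239).

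**Figure D3:**
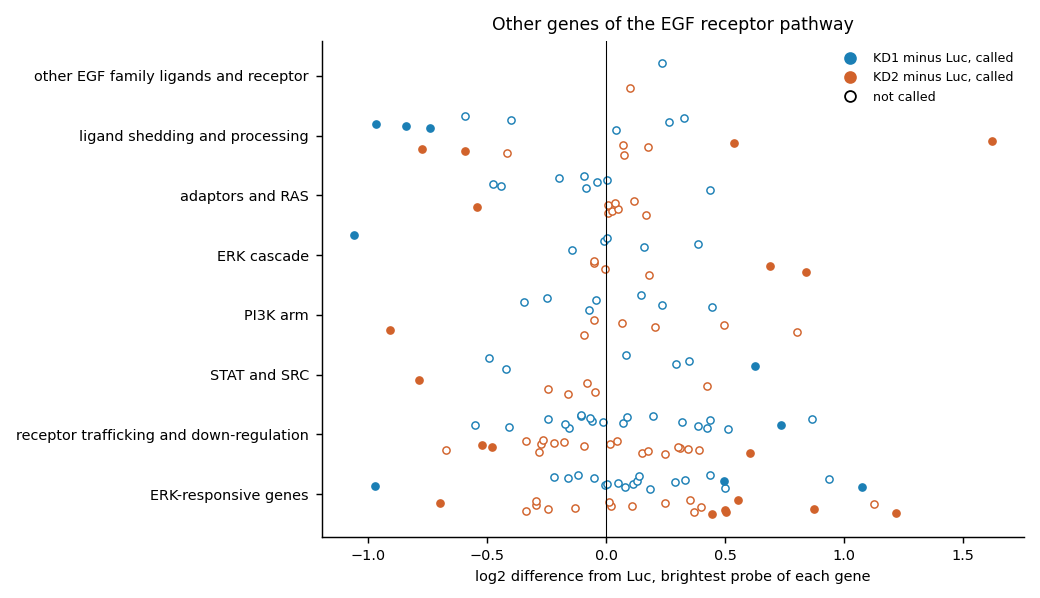
Log2 difference from Luc (x axis) of the brightest tested probe of 76 pathway genes on 8 lists (y axis), KD1 in blue and KD2 in orange, filled where called. The points of most lists lie on both sides of 0, and TIMP3 in KD2 is the rightmost at 1.62.

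The size of a difference depended on the scale for dim probes more than for bright ones. On the deposited normalized values KD2 minus Luc was -1.07 for EGFR by ILMN_1798975, in place of -1.61, and 1.02 for HBEGF, in place of 1.15. For ERRFI1 in KD1 it was 0.59 on both scales. For EREG in KD1 it was -0.19, in place of -0.89, and for NRG1 by ILMN_1737252, KD1 minus KD2, it was -0.29, in place of -1.29.

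**Figure D4:**
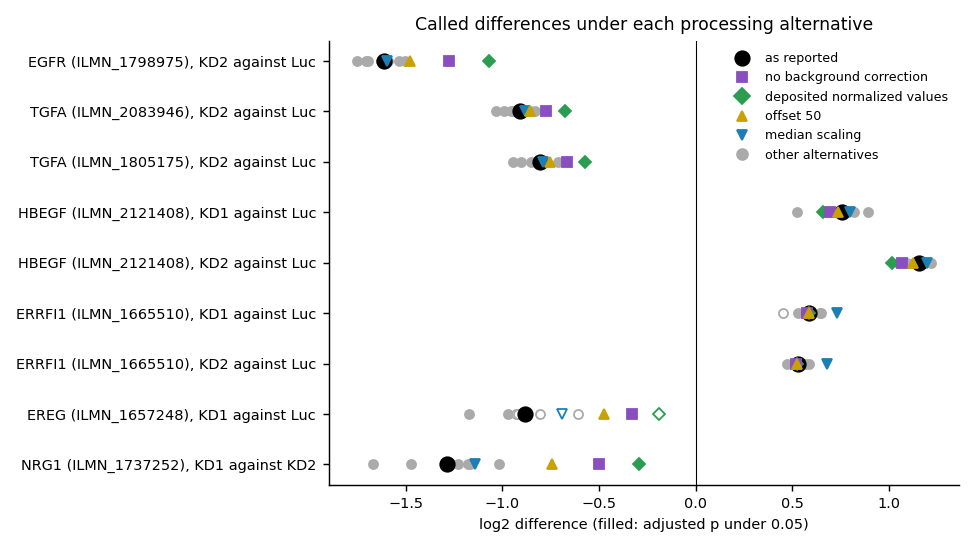
Log2 difference (x axis) of 9 called member results (y axis) as reported and under each processing alternative, filled where the adjusted p was under 0.05. EGFR, TGFA and HBEGF stay filled throughout, ERRFI1 has 1 open point in KD1, and EREG has open points and moves toward 0 on the deposited normalized values.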

How the data were processed

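Biotin-labelled cRNA from 9 RNA samples was read on Illumina bead arrays, per the labels' protocols. The deposited signal intensities are linear, unnormalized probe values with a detection p-value beside each, per the file headers. The deposited normalized values are near a log2 scale with equal quantiles on every array, and the submitters' processing notes name lumi. Export software is not given in the sources used here.

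Here neqc in limma 3.58.1 (R 4.3.3) removed background with a normal-exponential fit based on the detection p-values (offset 16), followed by quantile normalization and log2. Of 48799 probes, 28094 had 1 symbol, 13 several and 20692 none. For 28055 probes the symbol was taken from RefSeq through the Entrez identifier (GRCh38.p14, names only), whether or not it changed. A probe was tested, each on its own, when 3 or more arrays gave it a detection p under 0.05, which left 16164. One linear model with a mean per group over all 9 arrays (lmFit, eBayes, 6 residual and 10.3 total degrees of freedom) gave two-sided p-values, adjusted by Benjamini-Hochberg over all tested probes, and an adjusted p under 0.05 is a call. With 3 arrays per group the smallest p of an exact permutation test is 0.1, so none was used. Intervals are 95% intervals of single probes, not adjusted for their number. Where a group had no detected array, folds are lower bounds against the lowest detected signal of each array. They are taken from group means, with no allowance for spread. The precision is limited by the number of arrays.

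The members and lists were chosen with earlier results of these data known. Named were all member probes, up to 4 called genes of each pathway list by size of difference, and, for each member gene with a called probe, the 2 genes most correlated with its brightest tested probe, which for NRG1 is not the called probe. Lists were read by the brightest probe of each gene. Alternatives were no background correction, an offset of 50, median scaling over probes detected on all arrays, the deposited normalized values, 3 other detection rules, 1 probe per gene, fits of 2 groups, a replicate block and leaving out each array. Median scaling over all probes was added after seeing the data. The linear model fit alone was run on simulated normal values with set changes in KD1. Background correction, normalization and the detection filter were not simulated. Promoter sequences are from RefSeq (GRCh38.p14). All per-sample columns were used.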

Additional observations from a re-analysis of the deposited data

Results flagged for a closer look

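For 3 member probes detected on all 9 arrays, and for 1 near the detection limit, the effects of the 2 siRNAs differed by the test of the difference itself (limma, KD1 minus KD2, 3 arrays each). EGFR by ILMN_1798975 differed by 1.45 in log2 (adjusted p = 1.03e-04). TGFA differed by 1.1 by ILMN_2083946 (adjusted p = 8.93e-04) and by 1.12 by ILMN_1805175 (adjusted p = 3.44e-04). For these 3 probes KD1 was the higher group, on 3 of 3 arrays against every KD2 array. NRG1 by ILMN_1737252 had a fitted difference of -1.29 (adjusted p = 0.00947), but it was detected on 0 KD1 arrays. Its mean level in KD2 is therefore given as at least 1.84-fold higher, a bound without allowance for spread. The probe passed the detection rule through the groups in which it was higher. The share of all tested probes called in this comparison was 25.7%.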

How the results depend on the processing

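Over 33 member results (11 probes, 3 comparisons) and 20 alternatives, 594 of 633 values kept their direction and their side of the threshold. The falls of EGFR (ILMN_1798975) and TGFA in KD2, their differences between KD1 and KD2, and the rises of HBEGF were called under every alternative that tested them. Member probes called in KD1 against KD2 numbered 2 with 1 probe per gene, in place of 4, since that setting tests fewer probes. Leaving out 1 array gave 1567 to 2371 called probes in KD1 against Luc in place of 2497, lowest without Luc replicate 2. It gave 2 to 3 called member probes in KD1 against Luc, 5 to 6 in KD2 against Luc and 4 in KD1 against KD2. Differences that changed sign were not called. Leaving out 1 array, EGFR ILMN_1696521 ran from -0.51 to 0.0789 (KD1 minus Luc), -0.57 to 0.0240 (KD2 minus Luc) and -0.19 to 0.25 (KD1 minus KD2), ERBB3 ILMN_1751346 from -0.0464 to 0.35 (KD2 minus Luc) and NRG1 ILMN_1844593 from -0.39 to 0.0497 (KD2 minus Luc). With median scaling over all probes TGFA ILMN_2083946 was -0.0476 (KD1 minus Luc) and ERRFI1 -0.0699 (KD1 minus KD2). The cause was not tested. That scaling also gave 31.4% of calls higher in KD2 against Luc in place of 48.2%, and 33.3% in KD1 against KD2 in place of 48.3%. No clear pairing of the arrays by replicate number was seen: correlations of deviations from group means were -0.02 to 0.11 for equal numbers and -0.09 to 0.06 for others. With 3 arrays per group this check cannot exclude pairing. With the replicate block 2256, 3269 and 3906 probes were called in KD1 against Luc, KD2 against Luc and KD1 against KD2, in place of 2497, 3466 and 4159, EREG lost its call in KD1 (adjusted p = 0.0705) and NRG1 ILMN_1737252 gained one in KD2 (adjusted p = 0.0494). Signal close to background limits what EREG, NRG1, ERBB3 and the dim EGFR probe can show.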
